A study of Mus musculus with 2 samples.

Results

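Neutrophils, the short-lived granulocytes that bone marrow releases into blood and that enter inflamed tissue and tumours, were picked out of a single-cell RNA data set of mouse liver tumours. Members were chosen by their transcripts. A kept barcode had at least 500 UMIs (unique molecular identifiers, each counting 1 captured RNA molecule), 250 genes or more and no more than 20% mitochondrial UMIs. A neutrophil had in addition at least 20 UMIs of S100a8 and S100a9 together, at least 2 of Csf3r, Cxcr2, Retnlg, Ngp and Camp together, none of Cd3d, Cd3e, Cd3g or Cd79a, and at most 9 of C1qa, C1qb and C1qc. This gave 351 neutrophils among 18786 kept barcodes, 69 of 9612 in the Crtc2+/+ library and 282 of 9174 in the Crtc2-/- library. A neutrophil with at least 5 UMIs of Ngp, Camp and Ltf together was called immature and any other mature, which gave 0 immature and 69 mature cells in the Crtc2+/+ library and 23 immature and 259 mature cells in the Crtc2-/- library. Values are given for Crtc2+/+ and then Crtc2-/-, and CPM are UMIs of a gene per 1000000 UMIs of the summed cells.

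The groups were mice with both Crtc2 alleles intact (Crtc2+/+) and mice with both inactivated (Crtc2-/-), Crtc2 being the gene of a coactivator of the transcription factor CREB. All received the liver carcinogen diethylnitrosamine (DEN) at 25 mg/kg into the peritoneum at 2 weeks of age and ate a NASH diet (one that causes steatohepatitis, a fatty and inflamed liver) from week 8 to week 26, so that both genotypes carry the same carcinogen and diet. Tumours were cut from the liver and made into 1 library of 10x Genomics 3' tags for each genotype. How many animals or tumours a library pools, the strain and the deleted part of Crtc2 are not given by the labels, which name no cell type for the loss of Crtc2. With 1 library per genotype there is no replicate, so genotype, animal, tumour and library cannot be told apart, no test was made, and the intervals below are 95% intervals for counting error only.

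Neutrophils mature in bone marrow in a fixed order. Progenitors fill primary granules with myeloperoxidase and elastase, and later precursors fill secondary granules with lactoferrin, cathelicidin and neutrophilic granule protein. The cells that are released lose these transcripts and gain receptors for chemokines and growth factors. In tissue, mature neutrophils release interleukin-1, tumour necrosis factor and chemokines, and tumour neutrophils have been described both as helpers and as opponents of tumour growth. CREB and its CRTC coactivators drive a set of early response genes, among them Fos, Nr4a1 and Rgs2, when cyclic AMP rises in a cell.

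The neutrophils were shallow cells. Their median depth was 2734 and 2880.5 UMIs with 1056 and 1139.5 genes, against a median of 7260.5 and 6748.5 UMIs over all kept barcodes. The summed neutrophils held 212559 and 1047855 UMIs, so the Crtc2+/+ values are the less precise. Median mitochondrial shares were 0.419% and 0.578%. Between the libraries 29 barcode sequences were shared, 3 of them on neutrophils, and no barcode was a neutrophil in both. Scrublet called 1 and 5 neutrophils as doublets, which were kept. Among mature cells, 3 and 9 barcodes had over 6000 UMIs and held 14.2% and 15.3% of the mature UMIs. The deepest Crtc2+/+ barcode, with 14745 UMIs or 6.94% of all Crtc2+/+ neutrophil UMIs, held all 39 Emcn UMIs and 175 of the 179 Fabp4 UMIs, both genes of endothelial cells, and the deepest Crtc2-/- barcode, with 28604 UMIs, held 222 Cd74, 60 Irf8 and 18 Gzma UMIs. Mature cells of the libraries are therefore compared below over the 66 and 250 of at most 6000 UMIs, a limit set after these barcodes were seen, except where all mature cells are named. Immature cells are set against all 259 mature Crtc2-/- cells.

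At the limits of the rule, 4 and 12 members had 20 to 24 S100 UMIs, and 6 and 9 barcodes met all other criteria with 15 to 19. With the second marker sum at exactly 2 there were 2 and 2 members, and 1 and 2 barcodes missed it with a sum of 1. Of barcodes with 20 or more S100 UMIs, 2 and 33 with a sufficient second sum had a Cd3 UMI, 21 of the 33 exactly 1. A further 27 and 81 barcodes failed by their S100 sum alone (median 5 and 3 UMIs) although they had at least 10 UMIs of Il1r2, Hdc, Clec4d, Trem1, Mmp9, G0s2 and Slpi together. The same was true of 69 of 69 and 275 of 282 members.

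Genes that the rule did not use fitted the name neutrophil in both libraries. Of 17 other neutrophil markers, 17 had a higher CPM in the members than in all other barcodes of the same library, 13 of them by 10-fold or more, and 16 were higher than in monocytes. Il1r2, a decoy receptor for interleukin-1, stood at 3067 and 2333 CPM in neutrophils and at 15.7 and 31.7 CPM in all other barcodes. Hdc, the histamine-forming enzyme, stood at 3176 and 2293 CPM against 5.93 and 30.2 CPM. Ly6g, the surface marker by which mouse neutrophils are usually sorted, was at 37.6 and 259 CPM against 0.0247 and 1.05 CPM. Because the cells were picked by correlated transcripts, these values describe the label and are no test of it.

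**Figure D1:**
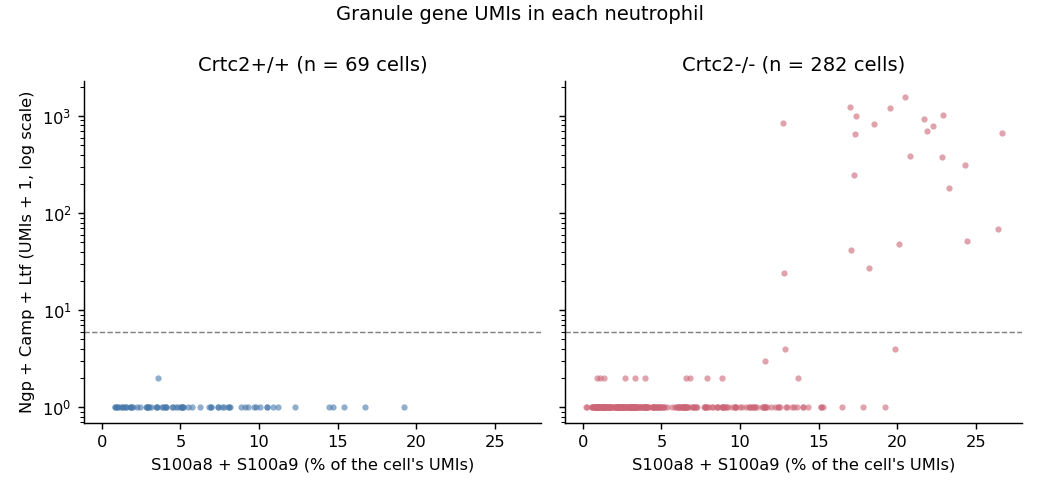
Each point is 1 neutrophil, in one panel per library. The horizontal axis shows S100a8 and S100a9 UMIs as a percent of the cell's UMIs, on a linear scale. The vertical axis shows summed Ngp, Camp and Ltf UMIs plus 1, on a log scale. The dashed line marks the limit of 5 UMIs for an immature cell. The 23 cells above it are all in the Crtc2-/- panel, the lowest with 23 UMIs and the highest with 1585, and no cell lies between 3 and 23.

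Neutrophils made up a larger share of the Crtc2-/- library. Their share was 0.718% (Clopper-Pearson interval 0.559 to 0.908) in the Crtc2+/+ and 3.07% (2.73 to 3.45) in the Crtc2-/- library, a ratio of 4.28 (exact conditional interval 3.28 to 5.66). Shares depend on the other cells counted. When barcodes with more than 9 C1q UMIs, the macrophage-like part of each library, were left out of the denominator, the shares were 1.58% of 4364 and 3.88% of 7274 and the ratio was 2.45 (1.88 to 3.24). Mature cells alone made up 0.718% and 2.82%, a ratio of 3.93 (3.01 to 5.21). Monocytes, the other short-lived myeloid cells that come from blood (at least 2 Ly6c2 and 1 Ccr2 UMI, at most 3 C1q UMIs, fewer than 20 S100 UMIs and none of Retnlg, Cxcr2, Ngp, Camp, Cd3 or Cd79a), made up 2.43% (2.14 to 2.76) and 5.10% (4.66 to 5.57), a ratio of 2.10 (1.79 to 2.46). The neutrophil interval lies above the monocyte interval, and both lie above 1. No cell count per gram of tumour exists here, so more neutrophils and fewer other cells cannot be told apart.

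Immature cells were seen in 1 library only. They were 23 of 282 Crtc2-/- neutrophils, 8.16% (5.24 to 11.99), and 0 of 69 Crtc2+/+ neutrophils, a count that allows a share of up to 4.35% when 3 counts are taken as the limit and up to 5.21% by the Clopper-Pearson interval. The granule transcripts separated the cells sharply. In the Crtc2+/+ library 68 neutrophils had none and the last had 1, whereas 245 Crtc2-/- neutrophils had none, 14 had 1 to 4 with a highest value of 3, and the 23 immature cells had 23 to 1585, median 645. Over all kept barcodes, in or out of the rule, Ngp gave 3 and 9920 UMIs, Camp 14 and 10305, and Ltf 11 and 2311. Few molecules of these genes were thus present anywhere in the Crtc2+/+ library. The immature cells were deeper than mature ones, with a median of 8155 UMIs (4594 to 16108) and 2018 genes, and none was called a doublet.

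Transcripts of other bone marrow cells differed between the libraries in the same direction. Hbb-bs, a beta globin of red cells, gave 36 UMIs in 31 Crtc2+/+ barcodes and 51900 UMIs in 612 Crtc2-/- barcodes, 0.443 and 666 CPM of all kept barcodes. Elane, the elastase gene of neutrophil progenitors, gave 0 and 2508 UMIs, the latter in 47 barcodes, and Mpo, the myeloperoxidase gene, 1 and 1019 UMIs, the latter in 19 barcodes. Inside the neutrophils the 7 erythroid markers summed to 4.70 and 20.04 CPM, while in all other barcodes they summed to 1.64 and 1267 CPM. The part of blood or marrow left in the tissue in these values was not tested.

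The granule genes that define immature cells lie close together on chromosome 9. Ngp (ENSMUSG00000032484, GRCm38 chromosome 9, 110419747 to 110423012, plus strand) encodes neutrophilic granule protein, Camp (ENSMUSG00000038357, chromosome 9, 109847379 to 109849617, minus strand) the antimicrobial cathelicidin, and Ltf (ENSMUSG00000032496, chromosome 9, 111019271 to 111042767, plus strand) the iron-binding lactoferrin. All 3 are protein-coding. The 250 bases before each start in RefSeq (GRCm38.p6) are printed 5' to 3' on the strand of the gene because the rule for immature cells rests on these genes. The windows are chr9:110419558-110419807 for Ngp, chr9:111019042-111019291 for Ltf and chr9:109849457-109849706 for Camp. Capitals mark each match to TTNNGNAAT on either strand, a pattern bound by C/EBP factors, of which C/EBP epsilon is needed for secondary granules.
Ngp: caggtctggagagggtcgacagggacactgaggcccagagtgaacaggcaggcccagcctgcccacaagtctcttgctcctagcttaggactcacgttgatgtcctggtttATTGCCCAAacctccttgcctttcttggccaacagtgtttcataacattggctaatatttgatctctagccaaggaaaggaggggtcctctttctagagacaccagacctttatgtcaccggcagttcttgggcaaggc
Ltf: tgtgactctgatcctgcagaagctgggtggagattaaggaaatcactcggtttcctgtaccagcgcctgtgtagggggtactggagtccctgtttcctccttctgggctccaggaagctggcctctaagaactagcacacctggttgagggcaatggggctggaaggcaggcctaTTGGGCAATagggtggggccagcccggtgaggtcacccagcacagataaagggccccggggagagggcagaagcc
Camp: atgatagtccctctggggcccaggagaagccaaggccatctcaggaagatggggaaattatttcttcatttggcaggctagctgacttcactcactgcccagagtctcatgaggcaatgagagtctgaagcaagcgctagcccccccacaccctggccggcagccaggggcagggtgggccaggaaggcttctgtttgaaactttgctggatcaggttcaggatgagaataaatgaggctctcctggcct
The match lay at -139 to -131 in Ngp and at -75 to -67 in Ltf, counted from the RefSeq start, and the Camp window held none. Of the 20 secondary granule genes with a window, 5 (25%) held the pattern, against 11.7% of all 27025 genes. A match describes letters and shows no binding.

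Immature Crtc2-/- cells gave a large share of their RNA to granule contents. Ngp made up 0.390% to 6.83% of a cell's UMIs (median 2.61%), and Camp had a median of 2.84% and was seen in 21 of the 23 cells, which describes the rule. Among genes that are not part of it, Serpinb1a, an inhibitor of neutrophil serine proteases, was at 1097 CPM in immature and 7.07 CPM in mature Crtc2-/- cells. Chil3, a chitinase-like secreted protein, was at 6605 and 104 CPM, but 1 mature barcode of 18199 UMIs held 68 of the 88 mature UMIs, and mature cells of at most 6000 UMIs stood at 27.8 CPM. Orm1, an acute-phase lipocalin, was at 531 and 3.54 CPM, and Itgb2l, a beta 2-like integrin, at 406 and 4.72 CPM. Cd177, a surface glycoprotein, was at 1092 and 36.5 CPM, Fcnb, the lectin ficolin B, at 210 and 1.18 CPM, and Cebpe, the transcription factor C/EBP epsilon, at 381 and 10.6 CPM. Adpgk was at 821 and 25.9 CPM and Abca13 at 561 and 20.04 CPM. Of the 24 secondary granule genes, 24 had a log2 ratio of immature over mature above 0 (10 CPM added), median 3.12, and 2.45 without Ngp, Camp and Ltf, where 38.2% of 4909 genes were above 0 with a median of -0.30.

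Primary granule transcripts were nearly missing from the immature cells, with 0 Mpo, 0 Ctsg, 1 Elane and 5 Prtn3 UMIs among 199702. Some of them were dividing cells by their transcripts: Mki67 and Top2a summed to at least 3 UMIs in 5 of 23 immature and 1 of 259 mature cells. Ube2c, which marks the end of mitosis, was at 351 and 2.36 CPM, and 12 of 13 cell cycle genes were above 0, median 2.82. Gelatinase genes of later granules were high in both kinds of cell, Mmp8 at 2148 and 325 CPM and Mmp9 at 1332 and 670 CPM. Retnlg, a resistin-like peptide of circulating neutrophils, was at 5819 and 4491 CPM.

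Genes of activated tissue neutrophils showed the opposite order. Il1b, interleukin-1 beta, was at 240 CPM in immature cells, where 3 of the 23 had a UMI, and at 13059 CPM in mature cells. Cxcl2, a ligand of the neutrophil receptor Cxcr2, was at 135 and 6265 CPM. Csf3r, the receptor for granulocyte colony-stimulating factor, was at 255 and 2504 CPM, and Cxcr2 at 386 and 806 CPM. Ifitm1, an interferon-inducible membrane protein, was at 15.02 and 1553 CPM, Ptgs2, cyclooxygenase 2, at 25.0 and 1108 CPM, Dusp1, a MAP kinase phosphatase, at 105 and 3275 CPM, and Fgl2 at 15.02 and 615 CPM. Of the 10 genes with the lowest ratios, 4 had no UMI in immature cells. Against a floor of 3 UMIs over those cells, Atf3, a stress-induced transcription factor at 602 CPM in mature cells, was at least 40.1-fold higher there, the stefin genes Cstdc4 and Stfa2l1 at least 38.3-fold and 37.6-fold, and St8sia4 at least 16.1-fold. The stefin genes form a cluster of near-identical copies, so reads may be split among them. None of the NF-kappaB response genes measured (0 of 21) and 1 of 17 cAMP and CREB responsive genes lay above 0. In all, 276 of 1820 genes that passed the filters (15.2%) were at least 2-fold higher in immature cells and 599 (32.9%) at least 2-fold lower, so a low ratio is common among all genes in this comparison.

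**Figure D2:**
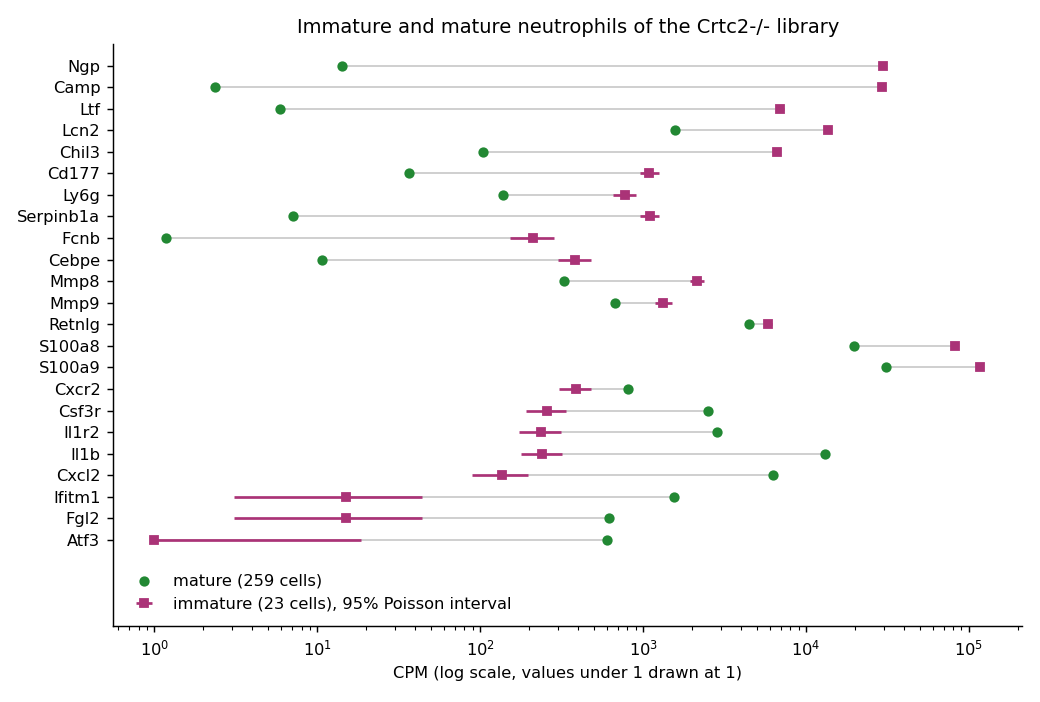
Summed CPM of 23 genes in immature (squares, with 95% Poisson intervals) and mature (circles) neutrophils of the Crtc2-/- library, on a log axis. Granule genes from Ngp to Cebpe lie to the right in immature cells, Retnlg lies within a factor of 2 of itself, and receptors, cytokines and response genes from Cxcr2 to Atf3 lie to the left. Atf3 had no UMI in immature cells and is drawn at 1.

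Over all neutrophils, the genes with the highest Crtc2-/- to Crtc2+/+ ratios were largely those of the immature cells. Ngp gave 0 UMIs in the Crtc2+/+ and 5961 in the Crtc2-/- neutrophils (5689 CPM), at least 403-fold higher against a floor of 3 UMIs over the library's neutrophils, and Camp 0 and 5871, at least 397-fold. Cd177 gave 1 and 249 UMIs, a ratio of 50.5 (8.98 to 2003). Chil3 was at 89.4 and 1343 CPM, a ratio of 15.02 (9.58 to 25.03), but at -1.59 on the log2 scale in mature cells of at most 6000 UMIs. Cybb, the catalytic subunit of the NADPH oxidase, was at 56.5 and 672 CPM, a ratio of 11.9 (6.77 to 23.1), and at 2799 CPM in immature against 171 CPM in mature Crtc2-/- cells. Ifitm6, Adpgk, Abca13, Syne1, Tbc1d8, Ckap4 and Ly6c2 had log2 ratios of 2.77, 2.48, 2.21, 1.90, 1.87, 1.86 and 1.85, and each had a higher CPM in immature than in mature Crtc2-/- cells. In mature cells of at most 6000 UMIs these 7 stood at 0.75, 0.01, -0.12, -0.31, 0.35, 0.67 and -0.17.

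By count, 57 of 1602 genes that passed the filters (3.56%) were at least 2-fold higher in Crtc2-/- neutrophils and 40 (2.5%) at least 2-fold lower, and of 5368 genes with at least 20 UMIs 53.7% lay above 0, the median log2 ratio being 0.05. A gene passed with at least 100 CPM and a UMI in at least 10% of the neutrophils of its higher library, where its CPM was also at least 0.5 times that in all other barcodes. Secondary granule genes had 22 of 24 members above 0 and a median of 2.14, or 1.86 with the 3 members that had no Crtc2+/+ UMI set at their bound, and without the genes of the rule 19 of 21 and 1.65, or 1.59 with the bound. In all mature cells the count was 16 of 19 and the median 0.30. Cell cycle genes had 13 of 13 above 0 and a median of 1.32, and 0.14 (5 of 6) in all mature cells. The high medians of both lists were seen where the 23 immature cells were included.

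**Figure D3:**
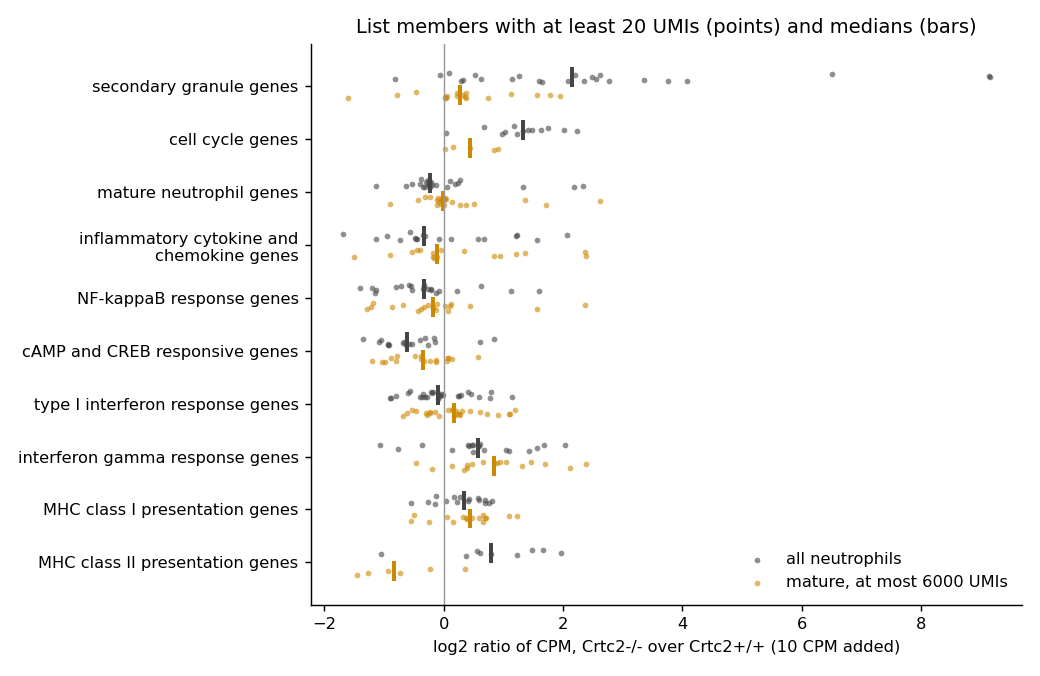
Log2 ratio of Crtc2-/- over Crtc2+/+ with 10 CPM added, one row per gene list, for list members with at least 20 UMIs (points) and their median (bars), over all neutrophils (grey) and over mature neutrophils of at most 6000 UMIs (orange). Secondary granule genes have medians of 2.14 and 0.28, cAMP and CREB responsive genes -0.61 and -0.35, interferon gamma response genes 0.58 and 0.84, and MHC class II genes 0.80 and -0.83.

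In mature cells of at most 6000 UMIs, Il1b stood at 15303 and 14788 CPM. Ptgs2 was at 1130 and 1247 CPM, a ratio of 1.10 (0.948 to 1.29), and Cxcr4, the receptor that draws aged neutrophils to bone marrow, at 949 and 1101 CPM, 1.16 (0.983 to 1.38). The 24 measured mature neutrophil genes, among them Csf3r, Cxcr2 and Retnlg of the rule, had a median of -0.01 with 11 above 0, and the 9 aged neutrophil genes 0.17 with 8 above 0. Against these, 32 of 1580 genes that passed (2.03%) were at least 2-fold higher and 29 (1.84%) at least 2-fold lower, and 55.1% of 4079 genes were above 0 with a median of 0.06. With all mature cells the counts were 30 (1.86%) and 25 (1.55%) of 1609, and 56% of 4895 genes were above 0. Of the 57 higher genes over all neutrophils, 20 were also among the 32 (35.1% and 62.5% of each list), and of the 40 lower genes, 20 were among the 29 (50% and 69.0%).

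Ifitm1, Wfdc17 and Steap4 were among the genes higher in mature Crtc2-/- cells. Ifitm1 was at 691 CPM (576 to 823) and 1774 CPM (1677 to 1874), a ratio of 2.57 (2.14 to 3.11). After each cell was thinned to 1000 UMIs, 25.8% (15.8 to 38.0) of 66 and 47.6% (41.3 to 54.0) of 250 mature cells had an Ifitm1 UMI, and 34.8% and 62.4% had one unthinned. T cells, which should lack it, had 0.168% and 0.202% after the same thinning. Unthinned, at median depths of 4604.5 and 4666 UMIs, T cells had 0.504% and 1.33%. Wfdc17, a whey acidic protein of activated myeloid cells, was at 636 and 2119 CPM, 3.33 (2.76 to 4.06), with a UMI in 24.2% (14.5 to 36.4) and 46.4% (40.1 to 52.8) of thinned mature cells and 1.06% and 2.98% of T cells. Steap4, a metalloreductase, was at 82.3 and 324 CPM, 3.94 (2.34 to 7.16), and in 6.06% (1.68 to 14.8) and 23.6% (18.5 to 29.4) of thinned cells against 0% of T cells in both libraries, where a count of 0 allows up to 0.206% and 0.149% by the exact interval. These 3 genes were therefore seen in a larger part of the mature Crtc2-/- cells and not in a few of them.

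Further genes on that side were measured with fewer Crtc2+/+ molecules. Arf2, an ADP-ribosylation factor of vesicle traffic, gave 4 and 127 UMIs in mature cells of at most 6000 UMIs, 21.9 and 177 CPM, a ratio of 8.06 (3.07 to 30.0). Igfbp6 gave 7 and 113 UMIs, 4.10 (1.92 to 10.4), Upp1, a uridine phosphorylase, 9 and 133 UMIs, 3.75 (1.92 to 8.38), and Plcg2, phospholipase C gamma 2, 7 and 104 UMIs, 3.77 (1.77 to 9.61). Ly6g was at 43.9 and 160 CPM, Wfdc21 at 367 and 965 CPM, and Sod2, the mitochondrial superoxide dismutase, at 71.3 and 231 CPM. Ltb4r1, the high-affinity receptor for leukotriene B4, gave 4 and 61 UMIs, a ratio of 3.87 (1.44 to 14.7). Ly6g and Wfdc21 were higher in immature than in all mature Crtc2-/- cells, at 771 and 138 CPM and at 4972 and 837 CPM. In all other barcodes of the libraries Wfdc21 was at 0.962 and 17.2 CPM. The part of immature cell RNA in these 2 ratios was not tested.

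Lower in mature Crtc2-/- cells were Ell2, Pde7b and Ccl6, each well counted. Ell2, an elongation factor of RNA polymerase II, was at 1059 CPM (914 to 1219) and 416 CPM (370 to 466), a ratio of 0.393 (0.327 to 0.474), and in 51.5% (38.9 to 64.0) and 30.8% (25.1 to 36.9) of thinned cells against 3.02% and 4.68% of T cells. Pde7b, a phosphodiesterase that breaks down cyclic AMP, was at 406 and 123 CPM, 0.302 (0.219 to 0.417), and in 19.7% (10.9 to 31.3) and 8.40% (5.27 to 12.6) of thinned cells, intervals that overlap. Ccl6, a CC chemokine of myeloid cells, was at 2232 and 1189 CPM, 0.533 (0.473 to 0.601), and in 77.3% (65.3 to 86.7) and 46.0% (39.7 to 52.4) of thinned cells against 0.504% and 0.968% of T cells. Slc38a1, an amino acid transporter, was at 225 and 58.5 CPM, Ankfy1 at 181 and 50.1 CPM and Tbxas1, thromboxane synthase, at 121 and 32.02 CPM. Tbxas1 and Pde7b were also lower in the other barcodes of the Crtc2-/- library, at 178 and 76.7 CPM and at 300.2 and 168 CPM, and had log2 ratios of -1.36 and -0.88 in monocytes. After free RNA was subtracted by hepatocyte markers, the log2 ratio of Tbxas1 over all neutrophils was -0.25 in place of -1.45. With subtraction by C1q the Tbxas1 ratio was -1.47, and in mature cells of at most 6000 UMIs, without subtraction, it was -1.64. Over all neutrophils the 15 lowest genes were Slc38a1, Phf20, Chka, Pde7b, Ell2, Blvrb, Ralgapa2, Ankfy1, Cwc25, Tbxas1, Man1b1, Bcl2a1a, Thbs1, Cstb and Peak1, with log2 ratios from -1.65 to -1.29. Bcl2a1a has near-identical copies and its count is uncertain. Blvrb, biliverdin reductase B, stood at 0.21 in mature cells of at most 6000 UMIs, and the other 14 stayed below 0 there.

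**Figure D4:**
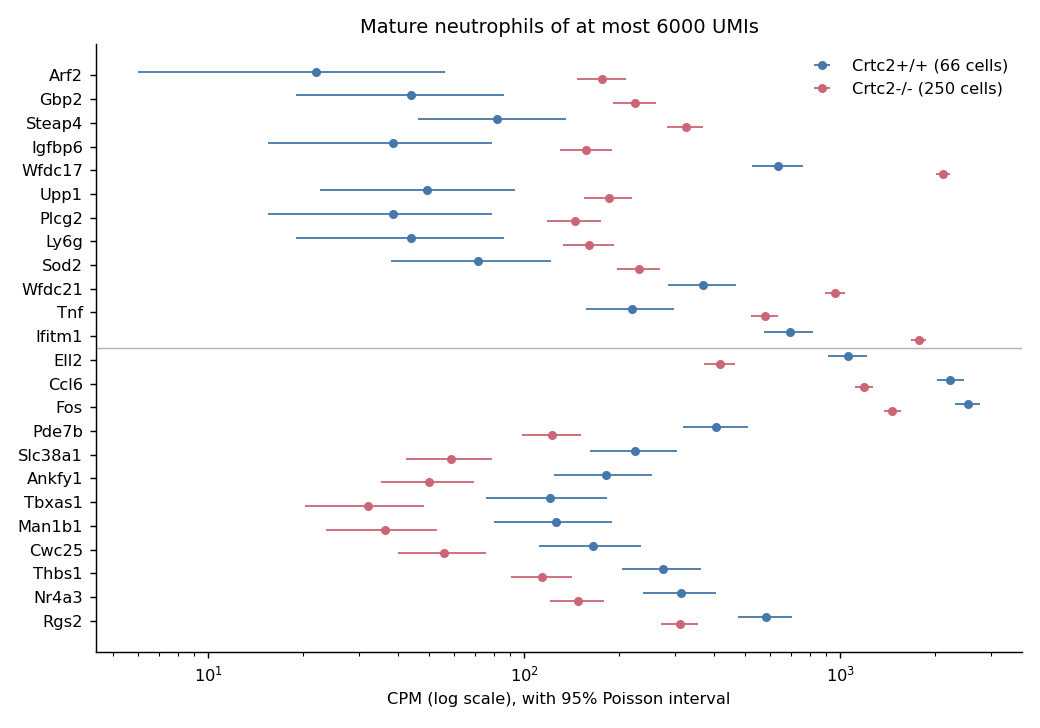
Summed CPM of 24 genes in mature neutrophils of at most 6000 UMIs, on a log axis with 95% Poisson intervals, for 66 Crtc2+/+ and 250 Crtc2-/- cells. Genes above the line, such as Ifitm1 at 691 and 1774 CPM, lie to the right in the Crtc2-/- library, and genes under it, such as Ell2 at 1059 and 416 CPM, to the left; the genes were drawn because of these ratios.

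The cAMP and CREB responsive genes, the readout nearest to the function of Crtc2, were lower in Crtc2-/- neutrophils by their median, though not as one block. Over all neutrophils 2 of 18 measured genes were above 0, median -0.61, and in mature cells of at most 6000 UMIs 5 of 18, median -0.35, beside 55.1% and 0.06 over all genes. Fos was at 2534 CPM (2308 to 2776) and 1462 CPM (1375 to 1553) in the latter cells, a ratio of 0.577 (0.517 to 0.645), and in 72.7% (60.4 to 83.0) and 56.8% (50.4 to 63.0) of thinned cells. Rgs2, a regulator of G-protein signals, was at 581 and 310 CPM, 0.534 (0.422 to 0.679). Nr4a3 was at 313 and 148 CPM, 0.472 (0.339 to 0.663), Fosb at 230 and 111 CPM, 0.483 (0.329 to 0.720), Thbs1 at 274 and 114 CPM, 0.416 (0.289 to 0.604), and Pde4b, a cyclic AMP phosphodiesterase, at 1015 and 780 CPM, 0.768 (0.649 to 0.912). The share of thinned cells with a UMI did not follow for all of these genes. Nr4a3 was in 9.09% (3.41 to 18.7) and 10.4% (6.91 to 14.9), the opposite order. Rgs2 was in 30.3% (19.6 to 42.9) and 21.2% (16.3 to 26.8). Rgs2, Fosb and Thbs1 had lower shares in the Crtc2-/- library, but their intervals overlapped, as did those of Fos. Other classic members differed little in CPM. Nr4a1 was at 784 and 830 CPM, 1.06 (0.880 to 1.28), Egr1 at 1059 and 1096 CPM, 1.03 (0.883 to 1.22), and Dusp1 at 4108 and 3739 CPM, 0.910 (0.839 to 0.988). Crem, itself a CREB target, gave 5 and 33 UMIs, 1.68 (0.650 to 5.50).

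Values of handling moved with this list. Many of these genes also respond to tissue digestion, and a list of dissociation and heat shock genes, 18 of them measured, stood at a median of -0.32 with 4 above 0 over all neutrophils, and -0.14 with 2 of 15 above 0 in mature cells of at most 6000 UMIs. The 23 immature cells, which had 1 of 17 of the list above 0, also lower the median over all neutrophils. The part of handling in the mature cells was not tested.

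The promoters of Fos and Rgs2 are printed because both were lower and well counted, with capitals for each TGACG or its complement CGTCA, the core of the cyclic AMP response element bound by CREB. Fos (ENSMUSG00000021250, GRCm38 chromosome 12, 85473890 to 85477273, plus strand) has the window chr12:85473640-85473889, and Rgs2 (ENSMUSG00000026360, chromosome 1, 143999338 to 144004161, minus strand) the window chr1:144004150-144004399.
Fos: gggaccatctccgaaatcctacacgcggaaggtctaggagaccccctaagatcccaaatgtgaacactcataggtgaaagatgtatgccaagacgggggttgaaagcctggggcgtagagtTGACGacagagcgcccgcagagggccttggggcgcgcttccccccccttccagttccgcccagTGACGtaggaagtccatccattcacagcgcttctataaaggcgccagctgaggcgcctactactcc
Rgs2: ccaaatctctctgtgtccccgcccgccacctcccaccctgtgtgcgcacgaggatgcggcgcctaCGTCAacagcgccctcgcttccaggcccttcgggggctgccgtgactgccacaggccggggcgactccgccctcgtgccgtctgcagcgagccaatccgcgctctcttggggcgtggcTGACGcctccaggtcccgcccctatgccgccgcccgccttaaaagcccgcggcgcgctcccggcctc
The core lay at -129 and -66 in Fos and at -185 and -67 in Rgs2. A window of 16 of the 19 list genes with a window (84.2%) held it, against 19.8% of all 27025 genes. The full palindrome TGACGTCA, which contains the core, was in 2 of the 19 (10.5%, Dusp1 and Areg), against 1.77% of all genes. The list was chosen as known CREB targets, so this share describes the choice. Nr4a1 and Dusp1, whose ratios lay near 1, also held the core.

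Crtc2 itself was too rare in neutrophils for a check. It gave 5 and 3 UMIs, 23.5 and 2.86 CPM, a ratio of 0.122 (0.0189 to 0.626). Over all kept barcodes it gave 650 and 436 UMIs, 7.99 and 5.59 CPM, 0.6997 (0.618 to 0.791), so transcripts remained in the library labelled Crtc2-/-. The deleted part of the gene is not given, and 3' tags outside it check nothing. Creb1 gave 18 and 135 UMIs and Crtc3 6 and 52 in neutrophils, log2 ratios of 0.55 and 0.64. Prkdc, the catalytic subunit of the DNA-dependent kinase named in the title of the study, gave 0 and 8 UMIs, and 3 of the 12 genes of that kinase and of end joining reached 20 UMIs.

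Interferon gamma response genes leaned to the Crtc2-/- side by count. Over all neutrophils 16 of 19 measured genes were above 0, median 0.58, beside 53.7% and 0.05 over all genes, and in mature cells of at most 6000 UMIs 15 of 17, median 0.84, beside 55.1% and 0.06. At least 2-fold higher were 6 of the 19 and 6 of the 17. Of genes that passed the filters 3.56% and 2.03% were, but list members needed only 20 UMIs. With 20 UMIs as the only filter, 375 of 5073 genes were at least 2-fold higher over all neutrophils. In mature cells of at most 6000 UMIs Irf1, the transcription factor that starts this programme, was at 230 CPM (166 to 311) and 585 CPM (530 to 643), a ratio of 2.54 (1.85 to 3.57). Gbp2 and Gbp5, guanylate-binding proteins of host defence, gave 8 and 161 and 9 and 132 UMIs, ratios of 5.11 (2.53 to 12.03) and 3.72 (1.90 to 8.32). Ifi47 gave 4 and 56 UMIs, 3.55 (1.31 to 13.5), and Cd274, the checkpoint ligand PD-L1, 65 and 464 UMIs, 1.81 (1.40 to 2.39). The share of cells did not follow for all of them. After thinning, 4.55% (0.947 to 12.7) and 8.40% (5.27 to 12.6) of mature cells had a Gbp2 UMI and 7.28% and 3.79% of T cells, so the neutrophil share cannot be read apart from the level that T cells or free RNA give. Irf1 was in 21.2% (12.1 to 33.0) and 24% (18.8 to 29.8) of mature cells, with T cells at 16.9% and 14.2%, and Cd274 in 12.1% (5.38 to 22.5) and 24.4% (19.2 to 30.2), intervals that overlap. Gbp5 came from 3 and 21 neutrophils, and the 4 highest held 57.2% of the Crtc2-/- UMIs. Cxcl10, an interferon-induced chemokine, gave 85 UMIs in 6 cells and 677 in 17 cells, and 1 Crtc2+/+ cell held 66 of the 85.

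The promoter of Gbp2 is shown because it had the highest ratio of the members described here. Gbp2 (ENSMUSG00000028270, GRCm38 chromosome 3, 142620602 to 142638008, plus strand) has the window chr3:142620413-142620662, with the interferon-stimulated response element (GAAA, any 2 bases, GAAA) in capitals on its complement strand.
Gbp2: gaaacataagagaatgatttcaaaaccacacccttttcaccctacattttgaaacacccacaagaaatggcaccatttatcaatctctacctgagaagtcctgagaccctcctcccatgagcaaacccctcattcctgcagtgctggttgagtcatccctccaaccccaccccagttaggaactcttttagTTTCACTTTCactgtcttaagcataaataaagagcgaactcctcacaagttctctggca
The match lay at -59 to -50. Of genes with a window, 13 of 23 of the interferon gamma list (56.5%) and 13 of 26 of the type I list (50%) held it. Of all 27025 genes 3.46% did.

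Type I interferon response genes, which are induced through another receptor and by viral or self nucleic acids, had no such lean. Over all neutrophils 9 of 28 were above 0, median -0.10, beside 53.7% and 0.05 over all genes. In mature cells of at most 6000 UMIs 16 of 26 were above 0, median 0.17, beside 55.1% and 0.06. Isg15, a ubiquitin-like protein, was at 762 and 550 CPM there, a ratio of 0.721 (0.593 to 0.881), and Oasl2 at 494 and 319 CPM, 0.646 (0.504 to 0.834). Irf7, the master regulator of this response, gave 10 and 93 UMIs, 2.36 (1.23 to 5.08), and Slfn5 15 and 145 UMIs, 2.45 (1.44 to 4.497). Rsad2 was at 346 and 405 CPM, 1.17 (0.890 to 1.56). The receptors for interferon gamma, Ifngr1 and Ifngr2, had ratios of 0.906 (0.640 to 1.31) and 1.15 (0.778 to 1.76).

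Monocytes of the same libraries serve as a comparison because they shared the tissue and the library. There 1 of 33 type I genes was above 0 and their median was -0.70, where 56.7% of 10765 genes were above 0 with a median of 0.04, and Isg15 and Rsad2 had log2 ratios of -1.504 and -1.42. Interferon gamma genes had 7 of 28 above 0 and a median of -0.18 in monocytes, where Gbp2, Gbp5 and Irf1 stood at -0.36, -0.58 and 0.32 against 2.12, 1.71 and 1.31 in mature neutrophils of at most 6000 UMIs. The CREB list had 5 of 19 above 0 and a median of -0.30 in monocytes, with Fos at -0.64, Rgs2 at -0.86 and Fosb at -1.08 against -0.79, -0.88 and -0.99. Tnf and Ifitm1 were at 0.69 and 0.90 against 1.36 and 1.35. With 1 library each, the difference between the cell types was not tested.

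**Figure D5:**
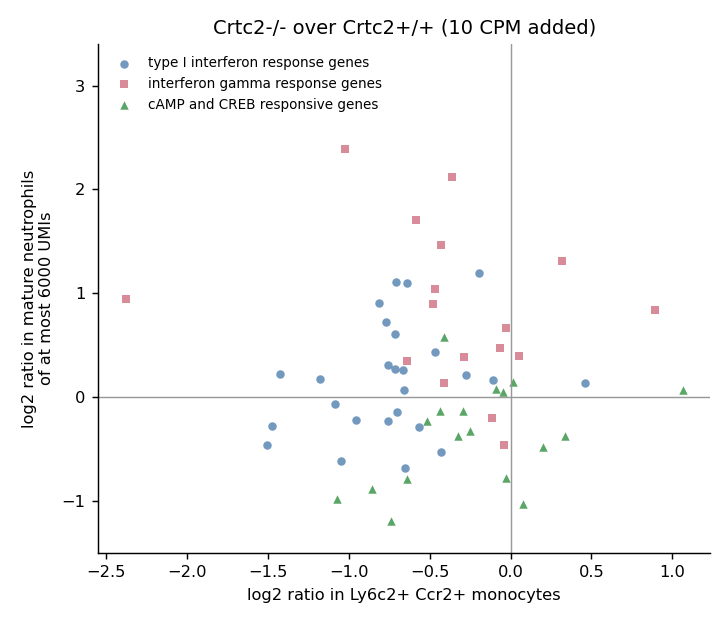
Log2 ratio of Crtc2-/- over Crtc2+/+ in monocytes (horizontal) and in mature neutrophils of at most 6000 UMIs (vertical), for 3 gene lists. Each point is 1 gene with at least 20 UMIs in these neutrophils, with no such limit in monocytes. Most type I genes (circles) lie left of 0 on the monocyte axis and around 0 on the neutrophil axis, interferon gamma genes (squares) lie mostly above 0 on the neutrophil axis, and CREB responsive genes (triangles) mostly below it.

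Inflammatory mediators split by gene. In mature cells of at most 6000 UMIs 7 of 17 cytokine and chemokine genes were above 0, median -0.12, and 7 of 20 NF-kappaB response genes, median -0.18. Over all genes 55.1% were above 0 in these cells, median 0.06. Tnf, tumour necrosis factor, was at 219 and 578 CPM, 2.63 (1.90 to 3.74), and in 15.2% (7.51 to 26.1) and 25.6% (20.3 to 31.5) of thinned cells. Il23a, the p19 chain of interleukin-23, gave 1 and 50 UMIs, a ratio of 12.7 (2.18 to 511), from 1 and 11 neutrophils. Nfkb1, a subunit of NF-kappaB, was at 499 and 209 CPM, 0.418 (0.320 to 0.549), and Ccrl2, an atypical chemokine receptor, at 1470 and 803 CPM, 0.546 (0.472 to 0.634). Nfkbia, the inhibitor of NF-kappaB, was at 4053 and 4261 CPM, 1.05 (0.970 to 1.14). Ccl3 and Ccl4, CC chemokines, were at 1234 and 1103 CPM and at 1338 and 1232 CPM, with ratios of 0.893 (0.769 to 1.04) and 0.921 (0.798 to 1.07). Osm, oncostatin M, was at 905 and 688 CPM, 0.760 (0.636 to 0.912).

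The antigen presentation genes need the large barcodes named beside them. In mature cells of at most 6000 UMIs, MHC class I genes had 13 of 16 above 0 and a median of 0.44, beside 55.1% and 0.06 over all genes. B2m was at 971 and 1258 CPM there, 1.30 (1.10 to 1.53), and H2-T23 at 110 and 178 CPM, 1.62 (1.01 to 2.75). MHC class II genes had 8 of 9 above 0 and a median of 0.80 over all neutrophils but 1 of 6 and -0.83 in mature cells of at most 6000 UMIs. In the Crtc2-/- library 4 cells held 82.9% of the Cd74 and 83.6% of the H2-Ab1 UMIs, and 60 of the 73 Irf8 UMIs were in 1 barcode.

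Mature cells also differed among themselves in genes that went with Retnlg. Across thinned mature cells of at most 6000 UMIs, Retnlg had a Spearman rho of 0.47 and 0.40 with Lcn2, 0.56 and 0.37 with Mmp8 and 0.42 and 0.41 with Ccl6 (66 and 250 cells). It was negative with Ccl3 (-0.43 and -0.18), Cxcr4 (-0.32 and -0.17), Ptgs2 (-0.26 and -0.21) and Icam1 (-0.26 and -0.22), and Ccl3 and Ccl4 had a rho of 0.82 and 0.50 with each other. Cells of 1 library share their source and, after thinning, their depth, and these values are given without a test. Il1b (0.08 and -0.16) and Cxcl2 (-0.21 and 0.03) had opposite signs in the libraries.

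RNA of other cell types was present at low levels and differed between the libraries. The 15 macrophage markers summed to 1082 and 595 CPM in the neutrophils against 27130 and 8720 CPM in all other barcodes, with Vsig4, Clec4f and Timd4 among 6 at 0 in the Crtc2+/+ and Timd4 and Marco at 0 in the Crtc2-/- neutrophils. The 20 hepatocyte markers summed to 621 and 553 CPM over all neutrophils, to 208 and 635 CPM in mature cells of at most 6000 UMIs and to 1303 and 3092 CPM in other barcodes. The 11 endothelial markers summed to 677 and 190 CPM over all neutrophils and to 21.9 and 61.3 CPM without the large barcodes. The 10 NK and ILC1 markers summed to 0 and 136 CPM, and to 0 and 11.1 CPM without them, and 12 and 5 of 13 T cell markers were at 0, of which Cd3d, Cd3e and Cd3g were set to 0 by the rule. The part of this RNA in the ratios above was not tested, apart from the subtractions given with the processing.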

How the data were processed

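Single-cell RNA of liver tumours was measured in 1 library per genotype. Per the labels' protocols a 10x Genomics 3' v2 kit and a HiSeq 2000 were used, and per the file headers the authors deposited raw UMI counts written by Cell Ranger 7.1.0, per the submitters' processing notes on mm10. The submitters' processing notes also name Seurat, with no role. No source used here says if intronic reads were counted, or by which annotation. Each deposited count matrix held 32285 features, 78 of which shared a symbol and were kept apart by identifier, for 9707 Crtc2+/+ and 9242 Crtc2-/- barcodes (81487425 and 78040008 UMIs). No barcode had under 502 or 501 UMIs, so filtering preceded deposit. No column lacked a sample (0 columns). Coordinates are from GENCODE M21 (GRCm38) and promoter windows from RefSeq.

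Neutrophils were chosen by the rule in the results on raw counts. The members, the gene lists and the alternatives were chosen with earlier results of these data known. UMIs were summed per library and population and scaled to CPM, with exact 95% Poisson intervals, exact conditional intervals for ratios and Clopper-Pearson intervals for shares. UMIs of 1 droplet stand for molecules, and intervals and floors cover counting error only. Log2 ratios have 10 CPM added, which understates low genes. Called means at least 2-fold. List members needed 20 UMIs over both groups, and 46 lists were computed. Because 1 library stands for each genotype, no test was made. Shares of cells with a UMI were read after thinning to 1000 UMIs, which left out 0 mature neutrophils and 2 and 1 T cells (at least 3 Cd3 UMIs). Scrublet in scanpy 1.11.5, at 0.8% per 1000 cells and on genes in at least 3 cells, called 263 (2.74%) and 273 (2.98%) kept barcodes as doublets, which stayed in except in an alternative.

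Named were the 15 highest and 15 lowest eligible genes over all neutrophils, the 10 highest and 10 lowest of immature over mature (in the Crtc2-/- library alone, since the other had no immature cell), the genes of the rule, Crtc2, Creb1, Crtc3 and Prkdc, and list members with the largest ratios. Mitochondrial, ribosomal, haemoglobin, receptor segment, sex-linked and predicted genes were not eligible. Other list members, and the genes of mature cells of at most 6000 UMIs, were named after their values were seen. Levels of 3' tags were compared within a gene, not between genes. Scripts ran in Python 3.11.15 with scipy 1.17.1 for intervals, numpy 2.4.6 and pandas 2.3.3 for sums, and matplotlib 3.10.9 for figures, and were tested on simulated data.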

Additional observations from a re-analysis of the deposited data

Results flagged for a closer look

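In the Crtc2-/- library 10 barcodes outside the neutrophil rule had at least 5 UMIs of Ngp, Camp and Ltf together, against 0 in the Crtc2+/+ library. They stand out because the comparisons did not use them and the control library has none. Of the 10, 5 met every other criterion and had exactly 1 Cd3 UMI. Barcodes with at least 5 UMIs of the primary granule genes Elane, Mpo, Prtn3 and Ctsg together numbered 19 in the Crtc2-/- library and 1 in the Crtc2+/+ library, and 1 of the 19 was a neutrophil by the rule. Both are single libraries, and the source of these barcodes was not tested.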

How the results depend on the processing

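The neutrophil share ratio of 4.28 ranged from 3.91 to 4.88 over other gates and was 2.45 when barcodes with over 9 C1q UMIs left the denominator. The immature share ranged from 6.70% to 9.62%. The counts of genes at least 2-fold higher and lower (57 and 40) were 36 and 18 with 50 CPM added, 37 and 26 with the mean of per-cell CPM, 30 and 25 in mature cells, 202 and 90 after free RNA was subtracted by hepatocyte markers (47.6% and 17.9% of the profile of other barcodes) and 375 and 162 with no filter but 20 UMIs. Subtraction by C1q gave 60 and 43. The subtraction by hepatocyte markers rests in part on large barcodes. The Crtc2+/+ sum of these markers was 621 CPM over all neutrophils and 208 CPM in mature cells of at most 6000 UMIs. Of the 33 Crtc2+/+ Apoc1 UMIs, 1 barcode held 31. Thinning gave 65 lower genes, and mature cells of at most 6000 UMIs 32 higher ones. The secondary granule median of 2.14 was 1.35 with 50 CPM added, 1.24 with per-cell means, 0.90 after thinning, 0.30 in mature cells and 0.28 in mature cells of at most 6000 UMIs. After subtraction by hepatocyte markers the interferon gamma median of 0.58 was 1.75, and the MHC class I median over all neutrophils was 2.65 in place of 0.35. By C1q these 2 medians were 0.62 and 0.38. The MHC class II median of 0.80 was 0.0135 without called doublets, 0 after subtraction by hepatocyte markers, 2.24 by C1q (3.43% and 3.09% of the profile), and turned to -1.02 without mature barcodes over 6000 UMIs and -0.83 in mature cells of at most 6000 UMIs. The cell cycle median of 1.32 ranged from 0.14 to 2.38.

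Direction turned for 5 named genes. In mature cells of at most 6000 UMIs Chil3 stood at -1.59, Abca13 at -0.12, Syne1 at -0.31 (-0.17 in all mature cells), Ly6c2 at -0.17 and Blvrb at 0.21, and Blvrb at 0.0242 without the mature barcodes over 6000 UMIs. Median-of-ratios scaling lowered the log2 ratio of a well counted gene by about 0.05. The alternatives for barcodes over 6000 UMIs, for 1 Cd3 UMI, for 7 genes in place of S100 and for C1q were chosen after seeing the data. The cause of these changes was not tested. Of 450 values of named genes 365 stayed within the counting error, 78 moved and 7 reversed. A fit of immature cells alone was not run, since the Crtc2+/+ library has 0. No paired analysis was possible because each genotype has 1 library and no test was made. Depth limits the Crtc2+/+ side, where 1 UMI is worth 4.70 CPM.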

Other observations

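In mature cells of at most 6000 UMIs, Crtc2-/- over Crtc2+/+, 11 of 22 measured genes of tumour-associated Siglecf-type neutrophils had a log2 ratio above 0, median 0.09, beside 55.1% and a median of 0.06 over all genes. Of the genes that passed the filters, 2.03% were at least 2-fold higher there and 1.84% at least 2-fold lower. List members needed only 20 UMIs, so these shares are not alike. With 20 UMIs as the only filter, 375 of 5073 genes were higher and 162 lower by that limit over all neutrophils. Of the 22 list members, 2 were at least 2-fold higher and 1 at least 2-fold lower. These were Il1a, interleukin-1 alpha, with 3 and 37 UMIs, a ratio of 3.13 (0.991 to 15.9), Mif, a cytokine, with 5 and 51 UMIs, 2.59 (1.04 to 8.31), and Spp1, osteopontin, with 15 and 24 UMIs, 0.406 (0.204 to 0.832). Siglecf itself, a sialic acid receptor, gave 4 and 21 UMIs, a ratio of 1.33 (0.450 to 5.34), and Vegfa, the main vessel growth factor, 10 and 25 UMIs, 0.635 (0.294 to 1.48). Suppressive myeloid genes had 10 of 15 above 0, median 0.14, with Arg2, arginase 2, at 845 and 789 CPM, 0.934 (0.781 to 1.12). Of the 15, Wfdc17, Cybb and Ifitm1 were at least 2-fold higher, and Olr1, a receptor for oxidised lipoprotein, gave 26 and 43 UMIs, a ratio of 0.4198 (0.252 to 0.712). Glycolysis and hypoxia genes had 18 of 26 above 0, median 0.16, with Hif1a at 203 and 234 CPM, 1.15 (0.803 to 1.69), and 2 of the 26 at least 2-fold higher, Egln3 with 1 and 21 UMIs, 5.33 (0.857 to 220.4), and P4ha1 with 1 and 30 UMIs, 7.61 (1.27 to 311).

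In the same mature cells of at most 6000 UMIs, NADPH oxidase genes had 8 of 10 above 0, median 0.13. Over all genes 55.1% were above 0, median 0.06. At least 2-fold higher were 2 of the 10, Cybb and Sod2. Of genes that passed the filters 2.03% were, but list members needed only 20 UMIs. The oxidase's cytosolic subunit Ncf1 was at 784 and 876 CPM, 1.12 (0.9296 to 1.35), and its membrane subunit Cyba at 998 and 1030 CPM, 1.03 (0.876 to 1.22). Cybb gave 9 and 86 UMIs, 2.43 (1.22 to 5.48), and Sod2 13 and 166 UMIs, 3.24 (1.84 to 6.21). Pattern recognition receptor genes had 9 of 15 above 0, median 0.07, with the endotoxin receptor Tlr4 at 159 and 167 CPM, 1.05 (0.695 to 1.63). Padi4, which modifies histones during chromatin release, gave 11 and 90 UMIs, 2.08 (1.11 to 4.31), and Alox5, the first enzyme of leukotriene synthesis, 15 and 106 UMIs, 1.79 (1.04 to 3.32).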
